A study of Rattus norvegicus with 6 samples.

Results

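The genes described here encode the proteins of the cytosolic ribosome, the particle that translates messenger RNA outside the mitochondria. They were taken as every probe set (a group of short probes for a transcript) annotated with exactly 1 gene symbol of the Rpl or Rps series, without the Rps6k kinases, Rps19bp and pseudogenes. This gave 55 probe sets for 48 genes, of 31042 probe sets other than controls and 14217 singly named genes on the array. The large subunit had 33 genes and the small subunit 15. Where a gene had several probe sets, the brightest one stands for it, and 42 of the 48 passed the signal filter and were tested. The other 6 (Rpl3l, Rpl28, Rpl39l1, Rpl30, Rpl26l1 and Rps13) were too dim to be tested.

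Liver RNA from 3 probiotic and 3 high-fat samples was hybridised to 1-colour arrays. Rats of both groups were made hypercholesterolemic on a fat-rich diet for 30 d and kept on it for a further 30 d with a daily gavage of 1 ml of normal saline. In the probiotic group the saline carried Lactobacillus casei Zhang, and in the high-fat group, the control, it carried nothing. Strain, sex and age of the rats are not stated in the labels, and the labels do not say that each sample came from its own rat, so p-values measure the spread between these samples.

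A ribosome holds each of its proteins in a fixed number, and cells make them in step. Their messenger RNAs are among the most abundant in a cell, and in mammals they begin with a run of pyrimidines, the terminal oligopyrimidine tract, through which the kinase mTOR controls their translation. Liver makes large amounts of secreted plasma protein and has a high demand for ribosomes. An array measures messenger RNA level only, not how fast it is translated.

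All values are log2(signal + 16) after quantile normalization unless stated, and every difference is probiotic minus high-fat. The 9 hepatocyte markers measured, among them Alb, Apob and Ttr, were all above the filter, with a median difference of 0.00541. The 9 Kupffer cell and macrophage markers measured were all lower, with a median difference of -0.38, and their summed signal was 10224 to 13324 in probiotic and 13601 to 16315 in high-fat samples. None of the 9 was below the filter. The gap between 3' and 5' probe sets of Actb, which is larger when RNA is more degraded, was 2.11, 3.01 and 2.38 in probiotic samples 1, 2 and 3 and 1.96, 1.59 and 1.96 in high-fat samples 1, 2 and 3. For Gapdh the same gap was 0.71, 1.49 and 1.23 in the probiotic samples and 0.52, 0.53 and 0.79 in the high-fat samples, and the groups overlap. High-fat sample 2 and probiotic sample 2 stood apart from the rest, with scores of 75.5 and -51.6 on the first principal component, where the other 4 arrays lay between -26.1 and 3.37. The part of the Kupffer cell markers in the results below was not tested. In bulk liver, fewer cells of a type and less RNA per cell cannot be told apart.

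The sequence at the start of these genes shows the feature for which the family is known. RefSeq start-site windows (assembly GRCr8) were found for 43 of the 48 genes. A terminal oligopyrimidine motif was taken as a C followed by at least 4 bases that are each C or T, read on the strand of the gene only. It began exactly at the annotated start in 12 of these 43 genes (27.9%), against 2.63% of 27457 windows of the same length, 1 per gene. It began within 10 bases of the start in 29 of 43 (67.4%), against 28.8% of all windows. By subunit, it lay at the start in 10 of 29 large and 2 of 14 small subunit genes. The windows below run from 10 bases before the start to 20 after it, 5′ to 3′ on the strand of the gene, and capitals mark the motif nearest the start, among those that begin within 10 bases of it, with the pyrimidines that follow it. Pyrimidines just before that first C stay in lower case. The first 4 carry the motif at the start, and the last pair, the tested genes of most negative difference that are not paralogs, have none that begins within 10 bases of it.
Rpl19 (chr10:83519054-83519083, + strand): ccagcaagctCTTTCCTTTCgctgctgcgt
Rpl14 (chr8:129163610-129163639, + strand): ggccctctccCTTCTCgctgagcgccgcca
Rps15 (chr7:10068096-10068125, − strand): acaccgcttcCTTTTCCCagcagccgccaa
Rplp0 (chr12:46718371-46718400, − strand): caccgcacttCTCTCgccaggcgtcctcat
Rpl3 (chr7:113507971-113508000, − strand): gcctgctcgatctctatcggcggcgtgtgg
Rps16 (chr1:92770648-92770677, + strand): aaaatcggtcggggtggccccaagctttcc
For Rpl3 and Rps16 this says only that these letters do not begin within that stretch, and in Rps16 a run that fits them begins further downstream, near the end of the printed window. The median difference was -0.0835 over the 12 genes with the motif at the start and -0.14 over the 31 without it there. Both values are descriptions, and they were not set against each other in a test. The 31 include genes in which the motif began within 10 bases of the start. Each window uses only the first listed start of a gene. For Rpl3 that start lay inside the annotated gene, which ends at 113508115 on chromosome 7. With another listed start a gene could be classed differently.

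Most ribosomal protein genes had lower mean values in the probiotic group, by small amounts, and none passed the test. Of the 48 genes, 40 had a lower mean in the probiotic group and 8 a higher one. The median difference was -0.11 on the log2 scale. Over the 18625 probe sets tested, 49.5% were lower, and the median difference was 0.00416. At an adjusted p under 0.05 with limma, 0 of the 42 members tested were called, and the smallest adjusted p among them was 0.726. That rule called 0.0215% of all probe sets tested. At an unadjusted p under 0.05, 3 members were lower and 0 higher, against 3.86% of all probe sets lower and 2.99% higher. This count of 3 became 1, 5 and 1 when probiotic samples 1, 2 and 3 were left out in turn. It became 2, 1 and 1 when high-fat samples 1, 2 and 3 were. Over all probe sets tested, in either direction, the same rule called 1275 with every sample kept. That number became 1772, 830 and 892 as the probiotic samples were dropped in the same order. For the high-fat samples it became 1525, 795 and 1171, so the member counts have to be read against these.

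**Figure D1:**
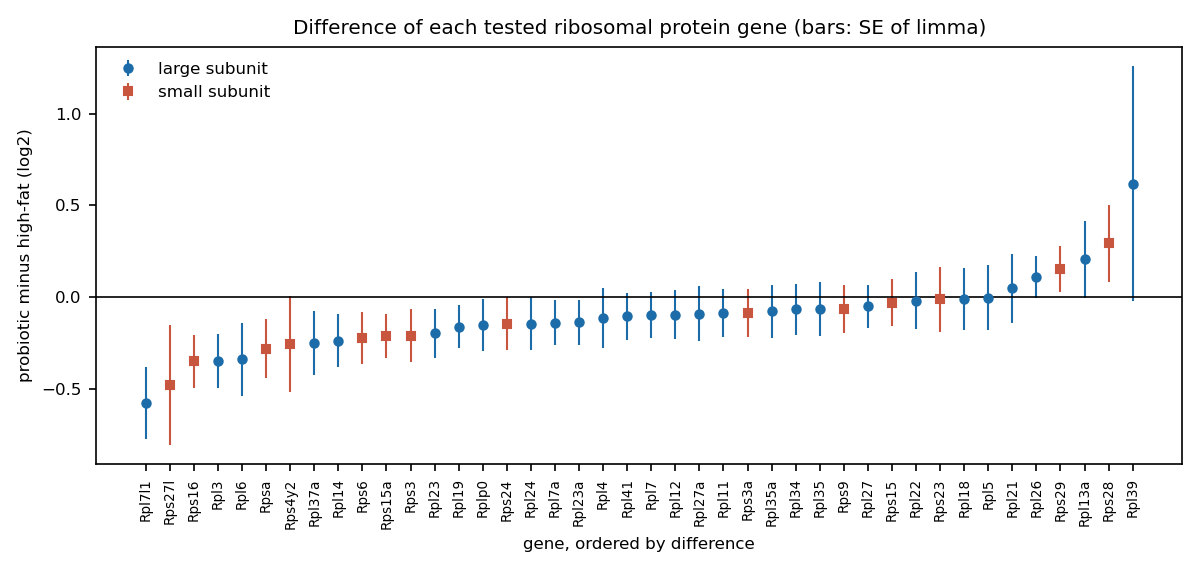
Difference between the probiotic and the high-fat group (log2, vertical axis) for the 42 ribosomal protein genes tested, ordered by size, with the SE of limma as bars, circles for the large and squares for the small subunit. Of these, 36 lie below 0, and Rpl39 has the widest bar, with an SE of 0.643.

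The lower mean came from probiotic samples 1 and 3, not from probiotic sample 2. Set against the mean of the high-fat samples, the median over the 48 genes was -0.117 in probiotic sample 1, 0.00873 in probiotic sample 2 and -0.215 in probiotic sample 3. Probiotic sample 3 was below all 3 high-fat samples in 32 genes, probiotic sample 1 in 25 and probiotic sample 2 in 17. Over all probe sets tested the same position was held by 25.1% in sample 3, 22.7% in sample 1 and 29.9% in sample 2. Probiotic sample 2 was above all 3 high-fat samples in 14 genes (29.2%, against 28.0% of all probe sets), while probiotic samples 1 and 3 were so in 2 genes each (4.17%, against 23.9% and 26.3%). The lowest of all 6 values fell in probiotic sample 3 in 25 of 48 genes.

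**Figure D2:**
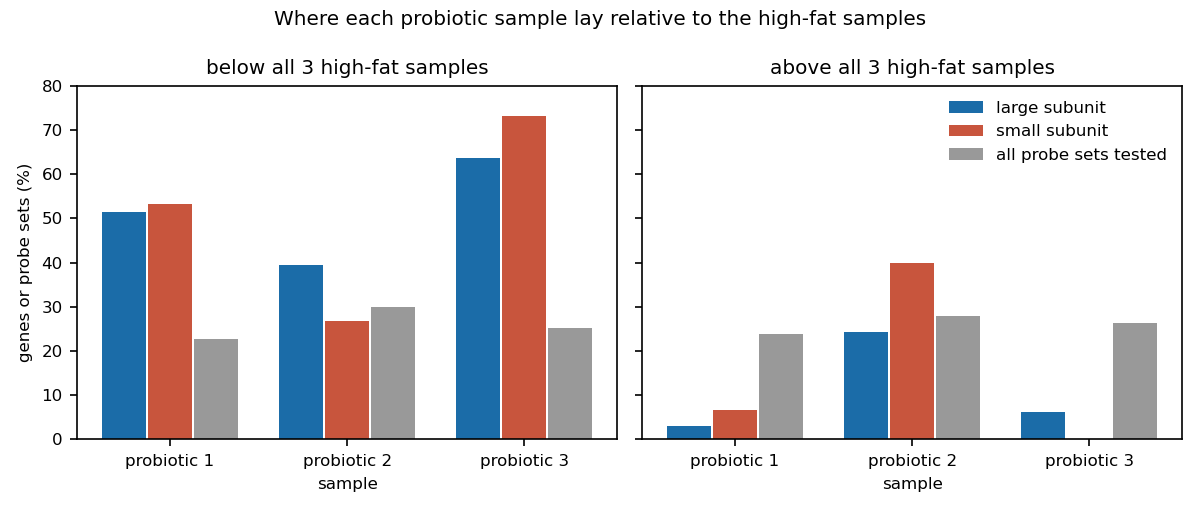
Percentage of large subunit genes, small subunit genes and all probe sets tested for which a probiotic sample lay below all 3 (left) or above all 3 (right) high-fat samples. For probiotic sample 3 the bars on the left are 63.6%, 73.3% and 25.1%, and for probiotic sample 2 they are 39.4%, 26.7% and 29.9%.

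Probiotic samples 2 and 3, the furthest apart of the probiotic samples, differed from each other by more than the groups did. Probiotic sample 2 exceeded probiotic sample 3 in 40 of 48 genes, by a median of 0.238, against 47.4% of all probe sets and a median of -0.0312. The group difference of -0.11 became -0.0504 when probiotic sample 3 was left out and -0.167 when probiotic sample 2 was. It was -0.203 with both sample 2 arrays left out. In a fit that held the Actb gap constant it was -0.249, and 44 of 48 genes were lower. That gap was larger in every probiotic than in every high-fat sample, so this fit cannot tell RNA quality and group apart. The 4 blood cell markers measured had a median deviation from their means of 0.022, 1.147 and -0.196 in probiotic samples 1, 2 and 3. In high-fat samples 1, 2 and 3 it was 0.132, -0.753 and 0.008, so they too were highest in probiotic sample 2. By group, Hbb (0.719), Alas2 (1.06) and Slc4a1 (0.147) were higher in probiotic and Ahsp (-0.473) lower. Endothelial (0.375) and bile duct cell (0.365) markers were also highest in probiotic sample 2. Hepatocyte, macrophage, lymphocyte and stellate cell markers were highest in high-fat sample 2. The part of these markers in the result was not tested. On the deposited signal scale, without quantile normalization, the 48 probe sets held 2.17%, 2.40% and 2.00% of all signal in probiotic samples 1, 2 and 3. In high-fat samples 1, 2 and 3 they held 2.31%, 2.29% and 2.41%. The group means were 2.19% ± 0.198 for the probiotic samples and 2.34% ± 0.0641 for the high-fat samples (SD, n = 3 each), and the ranges overlap.

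**Figure D3:**
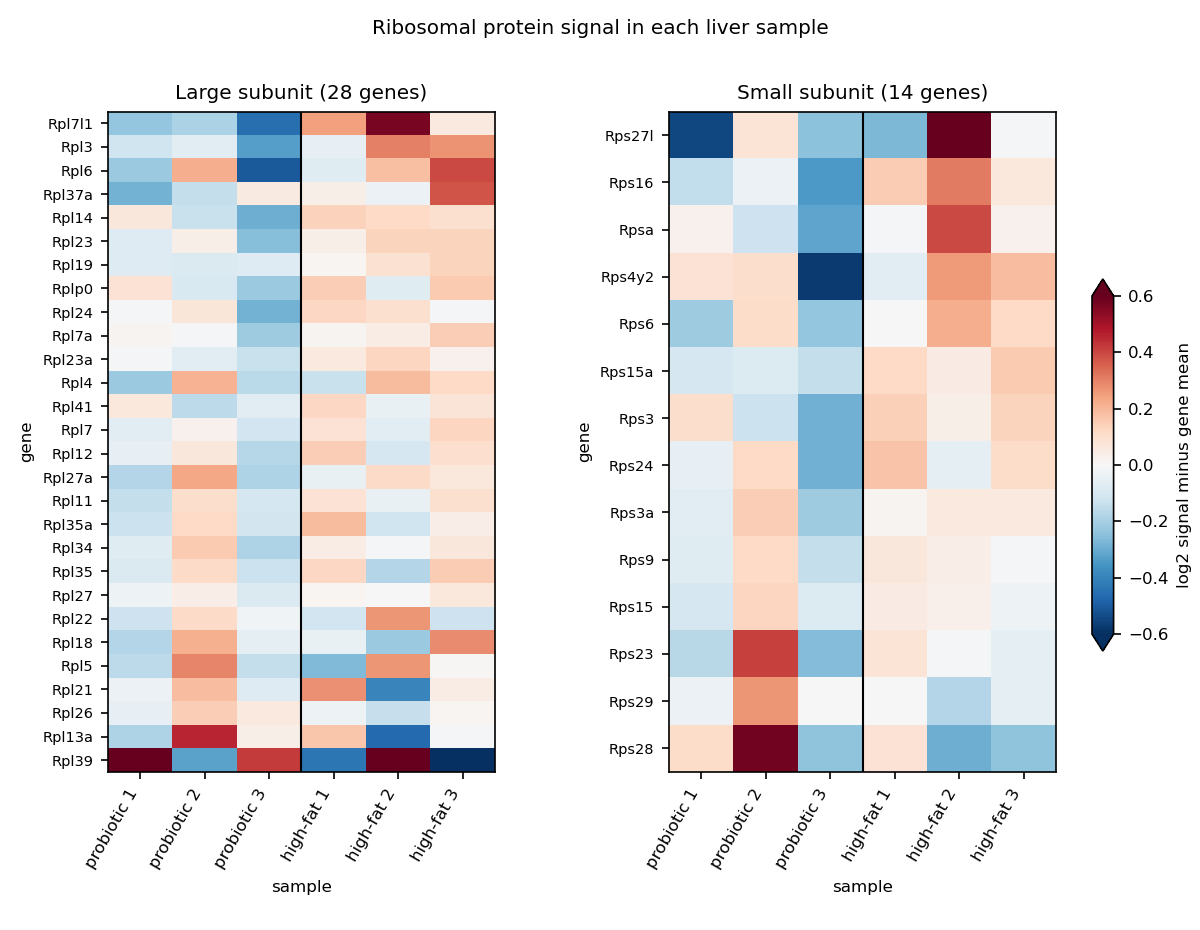
Signal of the 42 tested genes in each sample as the log2 value minus the mean of the gene over the 6 samples, large subunit left and small subunit right, with colours capped at 0.6 in either direction. The column of probiotic sample 3 is mostly below 0 and that of probiotic sample 2 is mixed.

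The subunits did not differ clearly. In the large subunit 28 of 33 genes were lower, with a median difference of -0.105, and in the small subunit 12 of 15, with a median of -0.147. The median deviation of large subunit genes from their means was -0.079, 0.042 and -0.141 in probiotic samples 1, 2 and 3 and 0.037, 0.045 and 0.095 in high-fat samples 1, 2 and 3. For small subunit genes it was -0.065, 0.113 and -0.244 in the probiotic samples and 0.046, 0.047 and 0.029 in the high-fat samples. For the small subunit the high-fat medians lay close together and the probiotic ones on both sides of them. For the large subunit probiotic samples 1 and 3 lay below all high-fat samples and probiotic sample 2 among them. By gene, the SD was larger among probiotic than among high-fat samples in 11 of 15 small and 14 of 33 large subunit genes (73.3% and 42.4%), against 49.3% of all probe sets tested. Large minus small, the deviation averaged 0.006 ± 0.0887 over the probiotic samples and 0.018 ± 0.0414 over the high-fat samples (SD, n = 3 each), a gap within the spread. Without the 6 genes for paralogs the medians were -0.0982 for the large and -0.0878 for the small subunit, so which subunit is lower turns with the choice of genes. Without probiotic sample 3 the medians were -0.0661 for the large and -0.0323 for the small subunit, and without probiotic sample 2 they were -0.162 and -0.22.

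In 7 of the 42 tested genes the groups did not overlap, and all 7 were lower in the probiotic group, where 6.7% of all probe sets tested were lower without overlap and 6.02% higher. These were Rpl3, Rpl7l1, Rpl14, Rpl19 and Rpl23a of the large and Rps16 and Rps15a of the small subunit. Rpl3, which reaches toward the peptidyl transferase centre, had 13.89, 13.94 and 13.68 in probiotic samples 1, 2 and 3, against 13.96, 14.31 and 14.28 in high-fat samples 1, 2 and 3. High-fat samples 2 and 3 were high, and high-fat sample 1 lay just above probiotic sample 2. The difference was -0.348 (SE 0.148, adjusted p = 0.726 with limma), or 1.27-fold lower. A second Rpl3 probe set, of a type that may cross-hybridise, overlapped between groups.

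Rps16, a protein of the head of the small subunit near the transfer RNA sites, had 13.27, 13.38 and 13.07 in the probiotic samples, against 13.57, 13.73 and 13.48 in the high-fat samples. Its difference was -0.35 (SE 0.145, adjusted p = 0.726 with limma). Rps15a, another core protein of the small subunit, had 13.97, 13.99 and 13.93 in the probiotic samples, against 14.19, 14.12 and 14.23 in the high-fat samples. Replicates of both groups lay close together, and the difference of -0.214 (SE 0.119) ranged from -0.23 to -0.194 when single samples were left out. Rpl14 had 13.09, 12.89 and 12.73 in the probiotic samples, against 13.16, 13.14 and 13.12 in the high-fat samples. Its high-fat values were almost equal, and probiotic sample 1 lay just under them. The difference of -0.238 (SE 0.147) was -0.154 without probiotic sample 3. A second Rpl14 probe set was below the filter.

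Genes of the polypeptide exit, where the new chain leaves the large subunit, went both ways. Of the 5 measured, Rpl19, Rpl23a and Rpl35 were lower and Rpl26 and Rpl39 higher, with a median difference of -0.0658. Rpl19 had 14.19, 14.18 and 14.19 in the probiotic samples, against 14.28, 14.36 and 14.40 in the high-fat samples. The probiotic samples were almost identical (SD 0.00622, n = 3), and the difference was -0.163 (SE 0.117, adjusted p = 0.766 with limma). Rpl23a, which with its neighbours forms the docking place for factors at the exit, had 13.71, 13.66 and 13.59 in the probiotic samples, against 13.78, 13.85 and 13.75 in the high-fat samples. Rpl26 had 14.98, 15.18 and 15.09 in the probiotic samples, against 15.00, 14.89 and 15.04 in the high-fat samples. The groups overlap, and its mean is 0.11 higher in the probiotic group. Rpl39, a very small protein of the exit tunnel, had 8.67, 7.52 and 8.26 in the probiotic samples, against 7.41, 9.05 and 6.14 in the high-fat samples. The high-fat samples alone covered more than the probiotic ones, and no direction can be read from them: the difference of 0.619 (SE 0.643) ranged from -0.0832 to 1.41 when single samples were left out.

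Among other core proteins of the large subunit, Rpl6 had 13.82, 14.26 and 13.54 in the probiotic samples, against 13.97, 14.22 and 14.44 in the high-fat samples. Probiotic sample 2 lay inside the high-fat range, and the difference of -0.341 (SE 0.201) became -0.54 when probiotic sample 2 was left out and -0.174 when probiotic sample 3 was. Rpl23, which sits at the face between the subunits, had a difference of -0.198 (SE 0.135; -0.124 without probiotic sample 3) and Rpl4, which lines the exit tunnel, one of -0.116 (SE 0.165). Rplp0, the base of the stalk that recruits elongation factors, had 13.99, 13.81 and 13.68 in the probiotic samples, against 14.05, 13.83 and 14.06 in the high-fat samples. Its groups overlap, since high-fat sample 2 lay below probiotic sample 1, and the difference of -0.154 (SE 0.142) was -0.078 without probiotic sample 3. Rplp1 and Rplp2, which complete the stalk, had no probe set under the rule. Rpl5 and Rpl11 bind 5S ribosomal RNA and, outside the ribosome, the p53 regulator Mdm2. Their differences were -0.0041 (SE 0.178) and -0.0879 (SE 0.131), and when single samples were left out that of Rpl5 ranged from -0.157 to 0.119 and that of Rpl11 from -0.163 to -0.0368. Rpl22 had a difference of -0.0216 (SE 0.156), which ranged from -0.0876 to 0.108 in the same way.

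In the small subunit, Rps6, the substrate of the S6 kinases downstream of mTOR, had 13.87, 14.19 and 13.85 in the probiotic samples, against 14.08, 14.30 and 14.20 in the high-fat samples. Probiotic samples 1 and 3 were low, probiotic sample 2 lay within the high-fat range, and the difference was -0.225 (SE 0.142, adjusted p = 0.749 with limma). Around the messenger RNA channel, Rps3 at its entry had a difference of -0.211 (SE 0.145). Rps9 had -0.0636, and Rps23, near the decoding site, had -0.0132. Rps28, at the exit of the channel, had 14.27, 14.74 and 13.92 in the probiotic samples, against 14.25, 13.87 and 13.92 in the high-fat samples. Probiotic sample 2 was the highest of all, and the difference of 0.293 (SE 0.209) was 0.0765 without it and -0.135 in the fit that held the Actb gap constant. Rps29 had 15.34, 15.64 and 15.38 in the probiotic samples, against 15.38, 15.20 and 15.32 in the high-fat samples, and overlapped through high-fat sample 1. Its difference was 0.153 (SE 0.125). Rpsa, also known as a laminin receptor, had 13.68, 13.53 and 13.34 in the probiotic samples, against 13.65, 14.05 and 13.68 in the high-fat samples. High-fat sample 2 stood above the rest, the difference of -0.282 (SE 0.161) was -0.153 without it, and the other Rpsa probe sets gave -0.0358 and 0.0781.

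Paralogs, encoded by separate genes that resemble a ribosomal protein gene, made up 6 of the 48 members, and 3 of the 6 passed the filter. Rpl7l1, a relative of Rpl7, had 10.70, 10.74 and 10.48 in the probiotic samples, against 11.18, 11.50 and 10.99 in the high-fat samples. All probiotic samples were lower, and the difference was -0.579 (SE 0.196, adjusted p = 0.726 with limma), or 1.49-fold lower. A second Rpl7l1 probe set gave 0.298 (SE 0.265), so the probe sets of this gene had opposite signs. Rpl7 itself had a difference of -0.0982 (SE 0.126), and a second Rpl7 probe set had -0.793 (SE 0.449). Rps27l, a p53-responsive relative of Rps27 in human cells, had 9.78, 10.41 and 10.08 in the probiotic samples, against 10.06, 11.32 and 10.32 in the high-fat samples. High-fat sample 2 stood above the others, and the difference of -0.48 (SE 0.327) was -0.101 without it. Rps4y2 had a difference of -0.256 (SE 0.261).

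The 6 dim genes lay below the signal filter. Rpl3l, a muscle form of Rpl3, had 4.98, 4.74 and 4.19 in the probiotic samples, against 5.24, 6.29 and 5.98 in the high-fat samples. Rpl26l1 had 6.73, 7.18 and 7.03 in the probiotic samples, against 5.18, 4.46 and 6.44 in the high-fat samples, the only member with all probiotic values higher. Rpl28 had 4.69, 4.33 and 4.45 in the probiotic samples, against 5.61, 4.89 and 6.55 in the high-fat samples. These genes were not tested, and their differences move with the added constant: that of Rpl3l was -1.20 with 16, -2.27 with 1 and -0.538 with 64. Rpl28, Rpl30 and Rps13 encode proteins of every ribosome, and their dim signal belongs to the single probe set that the rule gave them.

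Of the 6 genes with several probe sets, 3 had probe sets of opposite sign, namely Rps24, Rpl7l1 and Rpsa. For Rps24 the bright probe set gave -0.147 (SE 0.145; -0.239 to -0.041 when single samples were left out, the last without probiotic sample 3) and the other, below the filter, 0.766. A further 36 ribosomal protein probe sets, named with several symbols because the rat genome holds many near-identical copies, were outside the rule. Of these, 26 were lower and 10 higher in the probiotic group, with a median difference of -0.134. Signal of any gene here may include that of such copies.

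Other genes of translation showed smaller majorities of lower values, and none passed the adjusted test. Of 31 initiation factor genes 20 were lower (median difference -0.088), of 12 elongation and termination genes 9 (-0.217), of 64 ribosome biogenesis genes 44 (-0.11) and of 14 genes of RNA polymerase I 10 (-0.215). At an unadjusted p under 0.05 these lists held 1, 1, 4 and 1 lower genes and, in ribosome biogenesis, 2 higher ones, where 3.86% of all probe sets tested were lower and 2.99% higher. With so few genes called, these counts are no result about the lists. By sample, the median deviation of ribosome biogenesis genes was -0.182, 0.12 and -0.087 in probiotic samples 1, 2 and 3. In high-fat samples 1, 2 and 3 it was -0.205, 0.348 and 0.085. For initiation factors it was -0.155, 0.083 and -0.047 in the probiotic samples and -0.096, 0.212 and 0.106 in the high-fat samples. In both lists the groups overlapped and high-fat sample 2 was the highest. Eif5a, a factor that helps the ribosome through difficult peptide bonds, had 12.90, 12.71 and 12.72 in the probiotic samples, against 13.23, 13.27 and 13.09 in the high-fat samples (difference -0.421, SE 0.141). Dhps, the enzyme that begins the hypusine modification of Eif5a, had 8.05, 8.02 and 8.21 in the probiotic samples, against 8.66, 9.33 and 9.02 in the high-fat samples (difference -0.907, SE 0.252). Both had groups that do not overlap and an adjusted p of 0.726 with limma. In ribosome biogenesis, the differences were 0.636 for the pseudouridine synthase Dkc1, 0.653 for Mphosph10 and -0.71 for Heatr1, both of which act in small subunit assembly. Ttf1, which ends transcription by RNA polymerase I, had -0.556, and Ubtf and Taf1d, which start it, had 0.373 and 0.514. In initiation, Eif2b2 had -0.553 and Eif2s1 -0.366.

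Genes listed as also carrying a terminal oligopyrimidine tract but encoding no ribosomal protein were split, with 6 of 13 lower and a median difference of 0.0116. A count of the motif at the starts of these genes is not given here. Several of them stand in the lists above, among them the elongation factors Eef2 (-0.229) and Eef1g (-0.384). Rack1, a scaffold protein bound to the small subunit, had 12.91, 12.99 and 12.68 in the probiotic samples, against 12.97, 13.25 and 13.10 in the high-fat samples, and overlapped. Of the 9 genes of S6 and its mTOR pathway, Rps6 among them, 5 were lower. The S6 kinase gene Rps6kb1 had 9.22, 9.15 and 9.15 in the probiotic samples, against 8.00, 8.98 and 8.84 in the high-fat samples. High-fat sample 1 was the lowest, and the difference was 0.571 (SE 0.286, adjusted p = 0.732 with limma). Eif4ebp1, an inhibitor of initiation, had a difference of -0.545 (SE 0.284), and Tsc1, a brake on mTOR, one of 0.423 (SE 0.236). Mtor itself, named after its value was seen, had 0.0911 (SE 0.268).

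Mitochondrial ribosomal protein genes, which build the separate ribosome of the mitochondrion, had 47 of 73 lower and a median difference of -0.0759. Their median deviation was -0.003, -0.093 and -0.054 in probiotic samples 1, 2 and 3, against 0.055, 0.025 and 0.026 in high-fat samples 1, 2 and 3. Here probiotic sample 2 was the lowest, whereas for the cytosolic genes, at -0.077, 0.09 and -0.175 in the probiotic samples and 0.042, 0.046 and 0.073 in the high-fat samples, it was the highest. At an unadjusted p under 0.05, 3 of the 73 were lower, a share near the 3.86% of all probe sets tested, and 0 were higher. The 3 were Mrpl50 (-0.515), Mrpl55 (-0.478) and Mrpl15 (-0.403).

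**Figure D4:**
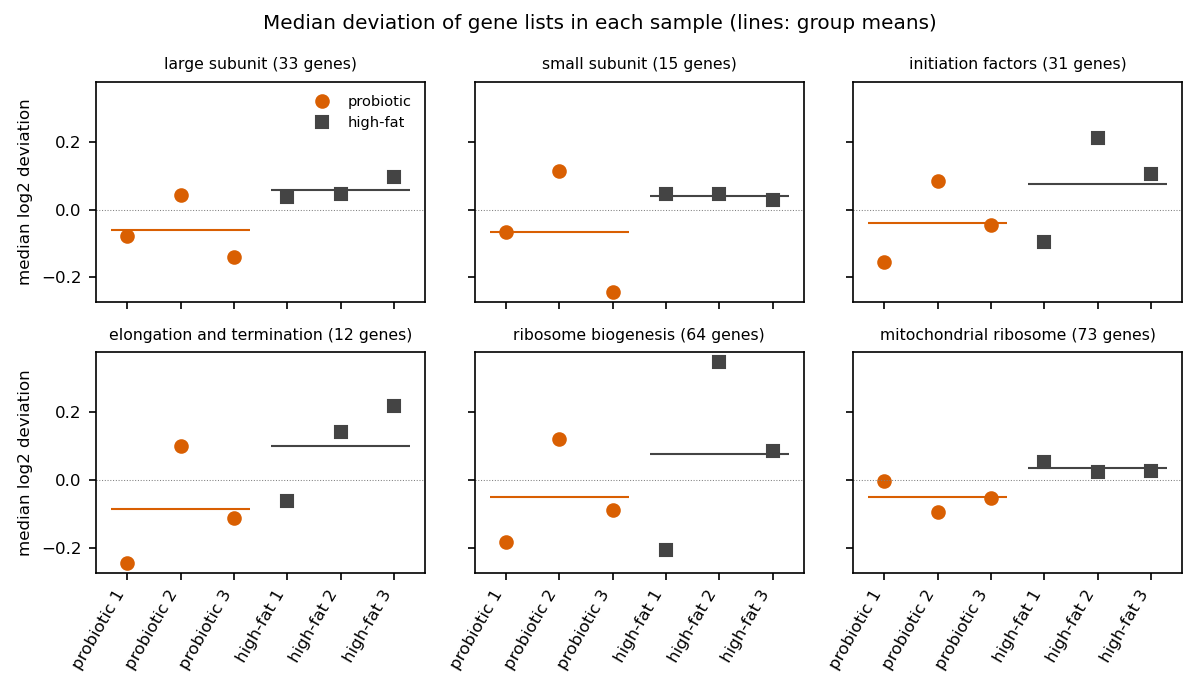
Median over the genes of a list of the log2 value minus the mean of the gene over the 6 samples, for the ribosomal subunits and other translation lists, with group means as lines. For the cytosolic lists probiotic sample 2 lies above the other probiotic samples, and for the mitochondrial ribosome it lies below them.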

How the data were processed

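The authors deposited 1 linear intensity per probe set and array. Its software and settings are unnamed in the labels. After removing 2% of the values at each end, every array had a mean of 500.3. From these values, log2(intensity + 16) was quantile normalized. The 57 control probe sets and those with a mean below the 40th percentile were left out, and 18625 were tested. Groups, taken from the sample titles, were compared in R 4.3.3 by limma 3.58.1 (lmFit, eBayes with intensity trend, two-sided, Benjamini-Hochberg over all probe sets tested). Counts and medians over gene lists are descriptions. The number of arrays limits the precision. Symbols came from the platform annotation and start-site windows from RefSeq (GRCr8), matched by gene identifier, then symbol, with the first listed start of a gene. No protein sequences were used.

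The members and lists were chosen with earlier results of these data known. Named members were the 5 of smallest p and the pairs of extreme difference in each subunit, a fixed set, paralogs and genes whose probe sets disagreed. Others (Rpl4, Rpl19, Rpl23a, Rpl26, Rpl35, Rps3, Rps4y2, Rps9, Rps23, Rps29 and the dim Rpl30 and Rpl39l1) were named after their values were seen, to cover the roles and the genes without overlap. From each other list of translation genes the 3 of smallest p were named. Alternatives covered normalization, added constant, filter, variance model, weights, replicate block, covariate, choice of probe set and samples left out. Scripts were tested on simulated data.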

Additional observations from a re-analysis of the deposited data

How the results depend on the processing

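The median difference of members stayed negative under every setting run, and 0 members passed the adjusted test in any, with limma. The number of members lower ranged from 35 to 41 when single samples were left out. The Actb gap was larger in every probiotic than in every high-fat sample, so a fit with it cannot tell RNA quality and group apart. Holding the Actb gap constant, the median was -0.249 over all members and -0.26 over the large subunit. With both sample 2 arrays left out the large subunit had -0.20. Large minus small subunit medians differed by 0.0418, by -0.0364 with the mean over the probe sets of a gene, and by -0.0475 to 0.0609 when single samples were left out. Members at an unadjusted p under 0.05 numbered 6 with array weights, 1 without the variance trend, 0 with median centring and 1 to 5 with single samples left out. Among all 18625 probe sets tested, that rule called 1711 with array weights, 1141 without the variance trend and 955 with median centring. It called 795 to 1772 of them with single samples left out. Among the tested members alone, 7 of 42 did not overlap. Members without overlap, untested ones included, numbered 10 of 48, where 12.7% of all probe sets tested did not overlap. Without the filter that share was 11.6%. Of the 48 members, 5 did not overlap with median centring (8.85% of all probe sets tested), 16 without normalization (11.9%) and 34 without both sample 2 arrays (32.6%). With single samples left out it was 12 to 22 (20.5% to 27.8%), since fewer samples overlap less often. Rps28 had -0.135 with the covariate, Rps24 0.31 with the mean over probe sets, and Rpl22 0.0425 with array weights and 0.0445 without both sample 2 arrays. Single samples left out turned Rpl5 (-0.157 to 0.119), Rpl22 (-0.0876 to 0.108) and Rpl39 (-0.0832 to 1.41). The cause of these shifts was not tested. Over all probe sets, 1275 had an unadjusted p under 0.05, and 443 with the covariate, 1989 without the filter, 703 without both sample 2 arrays, 795 without high-fat sample 2 and 830 without probiotic sample 2. The adjusted test called 4, which became 12 when probiotic sample 1 was left out and 9 when high-fat sample 1 was. With 3 samples per group, the values cannot settle whether the replicate numbers pair the samples. Deviations from the group means correlated at 0.144, 0.027 and 0.0774 between same-numbered samples of the groups. Between differently numbered ones they correlated at -0.141 to 0.0674. With the replicate block, 3 members had an unadjusted p under 0.05, where 1527 of all probe sets tested did, and 0 members passed the adjusted test.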
